A study of Mus musculus with 12 samples.

Results

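Acsl6, H19, Tmeff1, Gap43, Upp1, Rnf180, Lhx6, Vldlr and Fermt1 are genes with no read in natural regulatory T cells of WT label and clear expression in induced regulatory T cells of WT label. These 9 genes, of 23337 gene symbols counted, were chosen by that pattern, so their levels in the 6 WT-labelled libraries are a description and support nothing. The 6 KO-labelled libraries were not used in the choice.

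Regulatory T cells (Treg) are CD4 T cells that restrain immune responses under the transcription factor Foxp3. Natural Treg (nTreg) form in the body. Induced Treg (iTreg) are made from other CD4 T cells when stimulation with IL-2 and TGF-beta turns Foxp3 on. The 9 genes belong to no single pathway. Acsl6 and Upp1 encode metabolic enzymes, Vldlr and Tmeff1 encode membrane proteins, Gap43 and Fermt1 encode proteins of growth cones and of integrin adhesion, Rnf180 encodes a ubiquitin ligase, Lhx6 a transcription factor, and H19 a non-coding RNA. Several of them are better known from the nervous system, epithelium or embryo than from T cells.

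RNA was sequenced from C57BL/6 mice aged 8 weeks in 4 groups of 3 libraries. The iTreg KO group came from Hrd1 flox/flox mice and the iTreg WT group from Hrd1 +/flox mice, both with FoxP3-cre+-GFP. Their CD4 T cells from spleen and lymph nodes were held in IL2 and TGFbeta for 5 days before GFP-positive cells were taken. The nTreg KO group (Hrd1 flox/flox) and the nTreg WT group (Hrd1 +/flox) had the same Cre-GFP and were sorted as CD4+GFP+ cells without culture. All 12 libraries therefore carry the Foxp3-driven Cre and at least 1 floxed allele, and no group is Hrd1 +/+. Freshly sorted nTreg and cultured iTreg differ in origin, stimulation and time in culture together, and these cannot be told apart. Whether the 3 libraries of a group stem from different mice is not stated in the labels. The p-values therefore measure only the spread between these libraries, which in iTreg KO may be technical.

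Library totals were 9607726 to 12691976 counts in iTreg KO, 11332590 to 13223102 in iTreg WT, 8609283 to 15462894 in nTreg KO and 6763458 to 10845948 in nTreg WT. Hrd1 carries the gene symbol Syvn1. Syvn1 had 54.6, 73.1 and 63.1 CPM (counts scaled to the effective library size) in iTreg KO, against 61.6, 72.2 and 101.2 CPM in iTreg WT, and 145.5, 136.8 and 129.7 CPM in nTreg KO, against 73.7, 87.2 and 75.5 CPM in nTreg WT. Its gene-level CPM was thus higher in every nTreg library labelled KO than in every nTreg library labelled WT, and which exons are floxed is not given. KO and WT are used below as the libraries' labels. Foxp3, Il2ra and Ctla4 were found in all 12 libraries, while Ikzf2 (Helios, often used to tell nTreg from iTreg) had 21.3 to 34.5 CPM in iTreg libraries, against 796 to 1274 CPM in nTreg libraries. Markers of macrophages and other myeloid cells (8 genes) summed to 3.81 to 6.13 CPM in iTreg KO and 3.70 to 5.20 CPM in iTreg WT, against 35.8 to 326 CPM in nTreg KO and 39.1 to 146 CPM in nTreg WT. Markers of CD8 T and NK cells (6 genes) summed to 74.4 to 138 CPM in iTreg KO and 79.1 to 137 CPM in iTreg WT, against 41.3 to 52.2 CPM in nTreg KO and 41.4 to 46.0 CPM in nTreg WT. Most of the iTreg sum was Nkg7 (60.9 to 125.5 CPM, against 17.3 to 29.8 CPM in nTreg libraries). Cd8a was also higher in iTreg libraries, Cd8b1 and Klrb1c were lower there, Prf1 overlapped, and Ncr1 was at 0 in iTreg. The part of either set of cells, myeloid or CD8 T and NK, in the results was not tested. In iTreg WT, nTreg KO and nTreg WT the libraries did not all come from the same animals, by the following 2 genes. The X-inactivation RNA Xist had 2027 CPM in iTreg WT replicate 2, 483 CPM in nTreg KO replicate 3 and 729 CPM in nTreg WT replicate 3 and at most 0.232 CPM in the other 9 libraries. The Y-linked gene Ddx3y was at 0 in iTreg WT replicate 2 and had 79.0 to 262 CPM in the other 11 libraries. Both RNAs were thus found in nTreg KO replicate 3 (Ddx3y 141 CPM) and nTreg WT replicate 3 (Ddx3y 103 CPM), as a mix of male and female cells would give. Whether these libraries pooled animals was not tested.

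A short sequence recurs near the start of 4 of the 9 genes, and a window of each that holds it is shown for that reason. RefSeq promoter windows of build GRCm38.p6 run from 250 bases before to 50 bases after an annotated start, and 15 windows were found for 7 of the 9 genes (none for H19 or Gap43). TGANTCA, the AP-1 motif (bound by Fos and Jun proteins, and read alike on both strands), occurred in 5 of the 15 windows, against 7.81% of all 32851 windows. They belong to Acsl6, Lhx6, Upp1 and Rnf180, 4 of the 7 genes with a window, against 8.97% of all 27025 genes, but the 7 genes have more windows each than genes have on average. Capitals mark the motif, which starts 17 bases before the start in Acsl6, 181 in Lhx6, 45 in Upp1 and 136 in Rnf180. The fifth window is a second one of Upp1 that overlaps the printed window and holds the same match, 140 bases before another annotated start.
Acsl6, chr11:54303574-54303873, strand plus: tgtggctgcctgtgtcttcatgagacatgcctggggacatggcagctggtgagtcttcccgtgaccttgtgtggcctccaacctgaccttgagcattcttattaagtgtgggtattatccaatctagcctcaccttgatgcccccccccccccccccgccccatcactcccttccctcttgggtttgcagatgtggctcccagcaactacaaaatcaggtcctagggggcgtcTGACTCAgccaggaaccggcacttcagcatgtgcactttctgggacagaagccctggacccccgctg
Lhx6, chr2:36105359-36105658, strand minus: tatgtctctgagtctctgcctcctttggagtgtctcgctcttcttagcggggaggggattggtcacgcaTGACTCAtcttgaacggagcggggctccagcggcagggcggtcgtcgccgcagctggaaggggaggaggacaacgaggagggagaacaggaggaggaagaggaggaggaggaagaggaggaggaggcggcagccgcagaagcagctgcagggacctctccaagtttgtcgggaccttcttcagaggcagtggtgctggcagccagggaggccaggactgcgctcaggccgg
Upp1, chr11:9117758-9118057, strand plus: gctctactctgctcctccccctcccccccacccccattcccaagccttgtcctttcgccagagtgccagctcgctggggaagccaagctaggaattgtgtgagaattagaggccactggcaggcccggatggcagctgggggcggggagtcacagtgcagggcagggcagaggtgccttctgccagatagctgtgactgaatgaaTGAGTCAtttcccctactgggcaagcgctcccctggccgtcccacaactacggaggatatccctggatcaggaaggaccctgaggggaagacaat
Rnf180, chr13:105292965-105293264, strand minus: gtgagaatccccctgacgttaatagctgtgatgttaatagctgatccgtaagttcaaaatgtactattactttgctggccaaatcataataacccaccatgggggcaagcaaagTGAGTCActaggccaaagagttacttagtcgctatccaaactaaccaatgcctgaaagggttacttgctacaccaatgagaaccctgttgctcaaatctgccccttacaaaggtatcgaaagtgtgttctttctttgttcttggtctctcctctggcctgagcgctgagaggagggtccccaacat
None of the 15 windows held the SMAD palindrome GTCTAGAC (0.248% of genes), the STAT5 motif TTCNNNGAA (9.55%), the forkhead motif TGTTTAC (4.05%), the NF-kB motif GGGANTTCC (1.92%) or the CRE motif TGACGTCA (2.03%), each searched on both strands. A match is a description of these letters and not a binding site. The counts do not show which annotated start was used.

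In both WT-labelled groups the pattern is the one that chose the genes. No read of any of the 9 genes was counted in the 3 nTreg WT libraries, and mean levels in iTreg WT, not corrected for gene length, lay between 22.3 CPM for Fermt1 and 102.5 CPM for Acsl6. The same 2 bounds (no read in nTreg WT, and a mean of at least 22.3 CPM in iTreg WT) were met by 10 of the 23337 symbols, of 8698 without a read in nTreg WT. The tenth gene was Nupr1, a stress-induced regulator of transcription, which had 82.1 CPM in iTreg KO, 52.2 CPM in iTreg WT and 10.7 CPM (363 reads) in nTreg KO. Just outside the bounds were Fbxo2 at 18.1 CPM and Procr at 14.6 CPM in iTreg WT, both without a read in nTreg WT, and 5 genes at the level with 1 to 3 reads in nTreg WT, among them Cyp11a1 (53.0 CPM, 3 reads), Fads2 (40.5 CPM, 2 reads) and Lamc3 (29.8 CPM, 1 read).

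**Figure D1:**
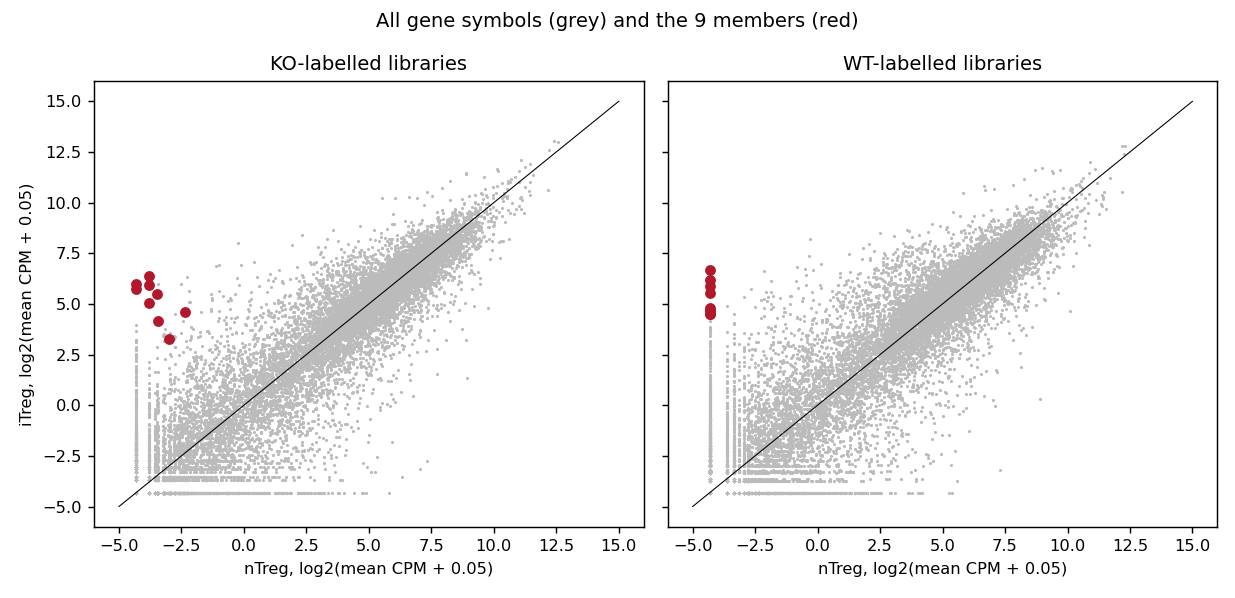
Mean level of every gene symbol in iTreg (vertical) against nTreg (horizontal), as log2(mean CPM + 0.05), in KO-labelled libraries (left) and WT-labelled libraries (right), with the 9 genes in red and the line of equal levels in black. In the WT panel, which chose the genes, all 9 lie at 0 reads in nTreg. In the KO panel, which did not, they lie at 0 to 0.147 CPM in nTreg and at 9.497 to 84.3 CPM in iTreg.

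In the KO-labelled libraries, which the choice had not used, all 9 genes had reads in each iTreg KO library and were near 0 in nTreg KO. Means in iTreg KO lay between 9.497 CPM for Fermt1 and 84.3 CPM for Acsl6. Single libraries went down to 0.739 CPM for Fermt1, 1.69 CPM for H19 and 1.99 CPM for Vldlr. Of the 10 genes within both bounds in WT, 8 reached 22.3 CPM on average in iTreg KO. Vldlr (17.7 CPM) and Fermt1 did not. Only Tmeff1 and Gap43, 2 of the 10, had no read in nTreg KO and met both bounds there. In each of the 9 genes every iTreg KO library lay above every nTreg KO library. Of the genes tested, 34.1% showed that separation. With edgeR's quasi-likelihood test, 9 of 9 were called higher in iTreg KO (Benjamini-Hochberg adjusted p 1.25e-06 for Acsl6 to 0.0041 for Vldlr), in a comparison that called 61.9% of 12038 genes and 32.1% of them as higher. All 9 genes passed the filter on low counts through their iTreg libraries, so this count adds no support beyond the values themselves. Fermt1 did not pass it in the 6 KO-labelled libraries alone. The exact permutation test of 3 against 3 libraries gave a two-sided p of 0.1 for each gene, which is the smallest p that it allows. In bulk RNA, fewer cells that express a gene and less RNA per cell cannot be told apart.

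The nTreg libraries held almost nothing to compare with. Reads of the 9 genes together numbered 5466, 2958 and 3665 in iTreg KO, against 2, 12 and 1 in nTreg KO, and 5911, 6327 and 3278 in iTreg WT, against 0, 0 and 0 in nTreg WT. Of the 12 reads in nTreg KO replicate 2, Rnf180 gave 7, Vldlr 2, and Acsl6, H19 and Lhx6 1 each. That library was the deepest of the 12 and also the one with the most Csf1r (a macrophage receptor, 195 CPM), and the part of either in these reads was not tested. Upp1 and Fermt1 gave the other 3 reads. Without nTreg KO replicate 2, no read of Acsl6, H19, Rnf180, Lhx6 or Vldlr is left in nTreg KO, and without replicate 1 none of Upp1. Ratios of the 9 genes to these few reads are given below with a 95% interval that treats the 3 libraries of a group as 1 pool. The interval thus covers counting error only and not the spread between libraries. Since the reads carry no molecular identifiers, it may be too narrow even for that.

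**Figure D2:**
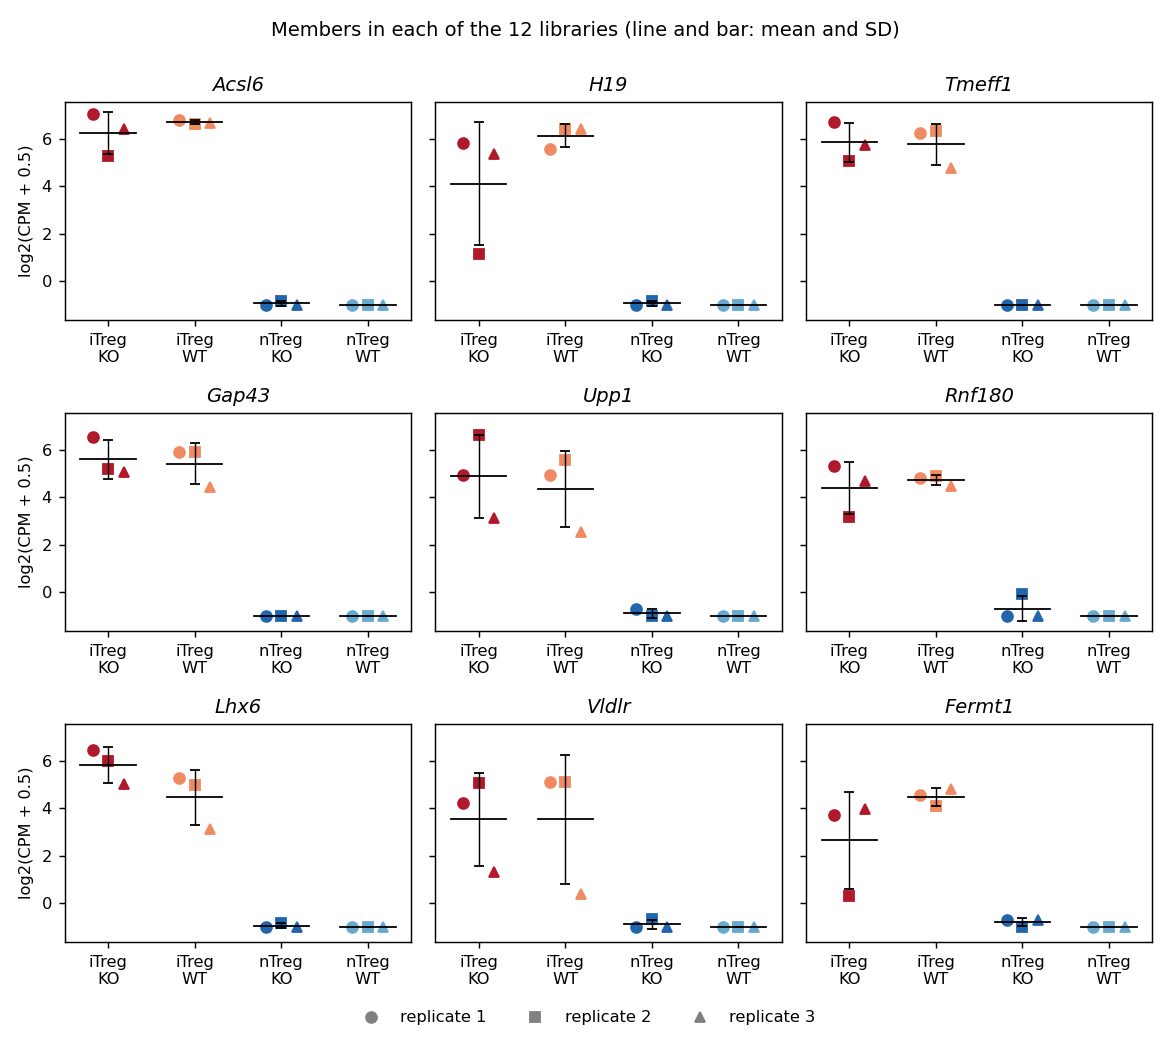
Level of each of the 9 genes in each of the 12 libraries as log2(CPM + 0.5), with a point per library, its shape giving the replicate number, and a line and bar for the mean and SD of the 3 libraries of a group. iTreg KO and iTreg WT points overlap in 8 genes, while in Fermt1 every iTreg KO point lies below every iTreg WT point, and all nTreg points lie at or near 0 reads (-1 on this scale).

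Among the enzymes, Acsl6 joins coenzyme A to long-chain fatty acids, the step that commits them to lipid synthesis or oxidation, and is best known from brain (chromosome 11, 54303798 to 54364756, plus strand, mm10, GENCODE M21, as for the positions below). It had 131, 38.1 and 83.7 CPM in iTreg KO, against 0, 0.0630 and 0 CPM in nTreg KO. It had 109, 97.9 and 100.3 CPM in iTreg WT, inside the range of iTreg KO. The ratio of iTreg KO to nTreg KO was 2849 (95% counting interval 511 to 1.126e+05), against a single read. Other genes of fatty acid activation moved both ways: of 17 tested, 10 were called higher and 5 lower in iTreg KO than in nTreg KO (32.1% and 29.8% of all genes were), with a median log2 fold change of 0.73 against 0.0089 for all genes. Acsl4, which prefers arachidonic acid, was called higher at 363 ± 42 CPM in iTreg KO, against 100.4 ± 4.6 CPM in nTreg KO (SD, n = 3 each; log2 fold change 1.86, SE 0.11, edgeR adjusted p 1.07e-07). Acsl3 was called higher by 2.76 on the log2 scale and Acss2, which activates acetate, was called lower by 1.84. Acsl6 was the member of this family with no read in nTreg WT, while Acsl1, Acsl3, Acsl4 and Acsl5 had means of 11.5 to 174 CPM there.

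Upp1 (chromosome 11, 9118103 to 9136170, plus strand) encodes uridine phosphorylase, which splits uridine into uracil and ribose 1-phosphate. It had 30.1, 97.5 and 8.18 CPM in iTreg KO, against 0.116, 0 and 0 CPM in nTreg KO, a ratio of 1403 (251 to 5.544e+04) against a single read. The iTreg WT libraries had 30.4, 46.3 and 5.33 CPM. Both iTreg libraries numbered 3 were lowest and both numbered 2 highest. Of 14 tested genes of uridine and pyrimidine metabolism, 6 were called higher and 2 lower in iTreg KO than in nTreg KO (all genes 32.1% and 29.8%, median log2 fold change of the 14 genes 0.12). Those named by smallest p were Umps (the last steps of uridine monophosphate synthesis, 1.51), Slc29a1 (a nucleoside transporter, 1.83) and Tyms (thymidylate synthase, 2.13), each higher in iTreg KO on the log2 scale.

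Among the membrane proteins, Vldlr (chromosome 19, 27216484 to 27254231, plus strand) takes up lipoproteins that carry apolipoprotein E and, with Lrp8, is a receptor for reelin. It had 18.3, 32.7 and 1.99 CPM in iTreg KO, against 0, 0.126 and 0 CPM in nTreg KO, a ratio of 272 (75.0 to 2254) against 2 reads, both of nTreg KO replicate 2. Without that library its fitted log2 fold change of 7.97 became 10.48, against no read in nTreg KO. In iTreg WT it had 34.0, 33.9 and 0.813 CPM, so that 1 of the 3 libraries that chose the gene held only 9 reads of it. Of 14 tested genes of the receptor family and the reelin pathway, 4 were called higher and 4 lower in iTreg KO than in nTreg KO (median 0.018). These shares are near those of all genes, 32.1% and 29.8%. Lrp8, the second reelin receptor, was called higher at 82.4 ± 7.2 CPM in iTreg KO, against 19.3 ± 3.3 CPM in nTreg KO (log2 fold change 2.09). Mylip, the ubiquitin ligase that sends both receptors to degradation, was called lower at 5.67 ± 4.45 CPM in iTreg KO, against 47.9 ± 11.4 CPM in nTreg KO (-3.04), and the sorting receptor Sorl1 was called lower too (-2.17).

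Tmeff1 (chromosome 4, 48585174 to 48663131, plus strand) is a transmembrane protein with follistatin-like and EGF-like domains. It had 104.7, 33.1 and 52.3 CPM in iTreg KO and no read in any of the 3 nTreg KO libraries, which makes it at least 702-fold higher when nTreg KO is set to 3 counts over the group. Levels in iTreg WT were 74.5, 78.3 and 26.8 CPM, with replicate 3 lowest. Its relative Tmeff2 was called higher too, with 8.87 ± 5.16 CPM in iTreg KO, against 0.060 ± 0.058 CPM in nTreg KO. Of 8 tested genes among follistatin-domain proteins and antagonists or receptors of the TGF-beta family, 4 were called higher and 1 lower in iTreg KO than in nTreg KO (all genes 32.1% and 29.8%, median of the 8 genes 0.76). The higher ones included the activin receptor Acvr2a (1.17) and the activin subunit Inhba, with 5.43 ± 5.60 CPM in iTreg KO, against 0.117 ± 0.009 CPM in nTreg KO.

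Gap43 (chromosome 16, 42248442 to 42340651, minus strand) is a membrane-attached protein of axonal growth cones. It had 91.3, 36.3 and 32.6 CPM in iTreg KO and no read in nTreg KO, at least 580-fold higher by the same floor. The 3 iTreg WT libraries had 59.9, 59.5 and 20.96 CPM. Per kilobase of exon Gap43 was the highest of the 9 in both iTreg groups, with 35.1 CPM per kilobase in iTreg KO and 30.7 in iTreg WT, above 85.1% and 83.0% of 10925 genes in those groups. On the same scale Fermt1 (1.67) and Vldlr (1.76) were lowest in iTreg KO, and Foxp3 had 69.8 in iTreg KO. Of 17 listed genes of neuronal growth and synapses only 7 had reads enough to be tested, and 3 were called higher and 2 lower in iTreg KO than in nTreg KO (all genes 32.1% and 29.8%, median of the 7 genes 0.40). The cytoskeletal regulator Stmn1, which cycling cells express too, was called higher (2.89), and L1cam (-3.58) and Sema4a (-2.92) were called lower. The neuronal and glial markers Snap25, Syt1, Stmn2 and Gfap were at 0 in all 6 iTreg libraries, while the 9 markers together summed to 110 to 222 CPM in iTreg KO, 177 to 196 CPM in iTreg WT, 251 to 278 CPM in nTreg KO and 273 to 293 CPM in nTreg WT, most of it Mbp.

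Fermt1 (chromosome 2, 132904389 to 132945906, minus strand) encodes kindlin-1, which helps talin to activate integrins in epithelium. It had 12.7, 0.739 and 15.02 CPM in iTreg KO, against 0.116, 0 and 0.108 CPM in nTreg KO, a ratio of 170 (46.6 to 1408) against 2 reads. Its levels in iTreg WT were 23.3, 16.4 and 27.3 CPM. The lowest iTreg KO library, replicate 2, held 7 reads of it, and nTreg KO replicates 1 and 3 held 1 each. Kindlin-3 (Fermt3), the form of blood cells, had 361 CPM in iTreg KO, against 457 CPM in nTreg KO (called lower, -0.34 on the log2 scale, edgeR adjusted p 0.018). Of 16 tested genes of kindlins, talins and integrin activation, 5 were called higher and 8 lower in iTreg KO than in nTreg KO (all genes 32.1% and 29.8%, median of the 16 genes -0.35). Itgb7 (-2.24) and Tln1 (-0.98) were lower and vinculin (Vcl, 2.61) higher. The keratins Krt8, Krt5 and Krt14 were at 0 in all 6 iTreg libraries, and the 7 epithelial markers together summed to 11.4 to 27.9 CPM in iTreg KO, 20.4 to 28.2 CPM in iTreg WT, 7.12 to 10.1 CPM in nTreg KO and 10.8 to 16.0 CPM in nTreg WT. Most of that sum was Epcam and Cdh1, and its part in the Fermt1 level was not tested.

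Rnf180 (chromosome 13, 105130001 to 105294815, minus strand) is a RING-type ubiquitin ligase of the endoplasmic reticulum membrane, the compartment in which Hrd1 itself works. It had 39.2, 8.56 and 25.3 CPM in iTreg KO, against 0, 0.441 and 0 CPM in nTreg KO, a ratio of 118 (57.1 to 295) against 7 reads, all of nTreg KO replicate 2. The fitted log2 fold change of 6.85 became 10.95 without that library, a value that then rests on no read in nTreg KO. Values in iTreg WT were 27.2, 29.2 and 22.0 CPM, closer together than in iTreg KO. Of 12 tested genes among its known substrates and other membrane ligases, 1 was called higher and 5 lower in iTreg KO than in nTreg KO (all genes 32.1% and 29.8%, median of the 12 genes -0.21). Lower were Rnf167 (-1.54), Rnf122 (-2.24) and Syvn1 (-1.11), the last with 63.6 ± 9.3 CPM in iTreg KO, against 137.4 ± 7.9 CPM in nTreg KO. In the WT-labelled libraries Syvn1 was level, with 78.3 CPM in iTreg WT and 78.8 CPM in nTreg WT. It was called higher in nTreg KO than in nTreg WT (log2 fold change 0.80, edgeR adjusted p 0.023).

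Lhx6 (chromosome 2, 36081953 to 36105408, minus strand) is a LIM homeobox transcription factor known from cortical interneurons. It had 87.2, 63.7 and 31.6 CPM in iTreg KO, against 0, 0.0630 and 0 CPM in nTreg KO, a ratio of 1960 (351 to 7.745e+04) against a single read. In iTreg WT the values were 38.0, 31.2 and 8.22 CPM. Of 20 listed LIM homeobox genes and partners, 16 had too few reads to be tested, and the other 4 had a median log2 fold change of -0.38. Lhx2 was called higher in iTreg KO (2.71 ± 1.52 CPM, against 0.380 ± 0.241 CPM in nTreg KO), and Lmo2 (-2.26) and Ldb1 (-0.41), which bridges LIM proteins on DNA, were called lower.

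H19 (chromosome 7, 142575529 to 142578143, minus strand) is a long non-coding RNA expressed from the maternal chromosome, silenced after birth in most tissues, and the host of miR-675. It had 56.1, 1.69 and 40.6 CPM in iTreg KO, against 0, 0.0630 and 0 CPM in nTreg KO, a ratio of 1136 (203 to 4.49e+04) against a single read. The values in iTreg WT were 46.9, 84.1 and 84.5 CPM, and iTreg KO replicate 2 stood apart from all of these. Igf2, its imprinted neighbour 72.6 kb away, was not on with it: Igf2 averaged 0.315 CPM in iTreg KO, 0.602 CPM in iTreg WT, 1.09 CPM in nTreg KO and 0.714 CPM in nTreg WT. Of 17 other imprinted genes listed, 6 could be tested, of which 3 were called higher and 1 lower in iTreg KO than in nTreg KO (all genes 32.1% and 29.8%, median of the 6 genes 0.55). Gnas (0.98) and Gatm (3.65) were among the higher and Cdkn1c (-3.15) was the lower one. Among 6 tested partners of H19 and of the Lin28 and let-7 axis, 2 were called higher, the RNA-binding protein Igf2bp3 (2.68) and Arid3a (0.51), and none lower (all genes 32.1% and 29.8%, median of these 6 genes 0.50). The mature miR-675 sequences are given because H19 RNA is their precursor. Small RNA was not measured here, and capitals mark the seed (bases 2 to 8).
mmu-miR-675-3p: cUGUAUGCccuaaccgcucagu
mmu-miR-675-5p: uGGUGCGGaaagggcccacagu

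Other lists describe the setting in which the 9 genes were on. Of 25 tested genes of the TGF-beta response, 12 were called higher and 6 lower in iTreg KO than in nTreg KO (median log2 fold change 0.65), where 32.1% of all genes were called higher and 29.8% lower. Pmepa1, a feedback inhibitor of Smad signalling, averaged 276 ± 15 CPM in iTreg KO, against 52.4 ± 4.1 CPM in nTreg KO, and the chemokine receptor Ccr8 averaged 287 ± 35 CPM in iTreg KO, against 37.7 ± 3.8 CPM in nTreg KO (SD, n = 3 each). Itgb8, which activates latent TGF-beta, was called lower (0.290 ± 0.116 CPM in iTreg KO, against 14.1 ± 2.5 CPM in nTreg KO). Of 25 genes of T cell activation in culture, 16 were called higher and 3 lower (median 1.29), with Tfrc (3.30), Mki67 (2.76) and Irf4 (2.67) named by smallest p. Of the 12 lists in all, TGF-beta response gave the single call in KO against WT in iTreg (Ccr8, higher by 0.75 on the log2 scale, edgeR adjusted p 0.043), in a comparison whose number of calls changed from fit to fit.

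The genes next to the 9 on the chromosome mostly had next to no reads in any group or were expressed in both cell types. Il3, 36.5 kb before Acsl6, was an exception, with 14.2, 1.06 and 10.7 CPM in iTreg KO and 3.60, 9.79 and 6.14 CPM in iTreg WT, and no read in any nTreg library. It was lowest in iTreg KO replicate 2, as Acsl6 was, but in iTreg WT it was lowest in replicate 1, where Acsl6 was highest. P4ha2, 172 kb from Acsl6, also had iTreg levels far above nTreg levels (19.7 CPM in iTreg KO, against 0.452 CPM in nTreg KO), while Fnip1, 73.4 kb after Acsl6, had 97.8 CPM in iTreg KO, against 61.0 CPM in nTreg KO. Unlike Acsl6, P4ha2 was highest of iTreg KO in replicate 2 (43.0 CPM) and lowest in the iTreg libraries numbered 3 (2.54 CPM in KO and 1.81 CPM in WT). Next to Lhx6, Rbm18 had 73.6 CPM in iTreg KO, against 58.9 CPM in nTreg KO, and Morn5 had no read in any group. These neighbours were chosen by position after the values of the 9 genes had been seen.

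The second question is whether the Hrd1 label changed the 9 genes, and with edgeR's quasi-likelihood test over the 12 libraries none of the 9 was called between KO and WT in iTreg. That comparison called 22 of 12038 genes (0.183%) and had 910 genes at an unadjusted p under 0.05. Since the 9 were chosen for high values in iTreg WT, the choice itself favours lower values in iTreg KO. The log2 fold changes lay between -1.22 for Fermt1 (SE 0.69, adjusted p 0.76) and 1.23 for Lhx6 (SE 0.49, adjusted p 0.61).

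Lhx6 went against the direction that the choice favours. Its 87.2, 63.7 and 31.6 CPM in iTreg KO, against 38.0, 31.2 and 8.22 CPM in iTreg WT, overlap as groups, but the KO-labelled library was higher in 3 of 3 pairs of the same replicate number, 2.30-, 2.04- and 3.85-fold. Of all genes tested, 14.1% were higher in all 3 pairs. In the pair numbered 2, Xist was at 0 in iTreg KO and 2027 CPM in iTreg WT, and Ddx3y at 79.0 and 0 CPM. That pair was thus not matched for these 2 sex-linked genes, and the part of this in the Lhx6 values was not tested. In iTreg, libraries of the same number deviated together over all genes, so a paired fit, blocked by replicate number inside each cell type, is given beside the main one. With the block, Lhx6 was called (log2 fold change 1.35, SE 0.18, edgeR adjusted p 0.023), the only one of the 9, in a fit that called 0.947% of genes and 0.673% as higher. Without 1 library at a time and without the block, its log2 fold change was 0.81 to 1.62 (adjusted p 0.31 to 0.91).

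Fermt1 and H19 were lower in the KO-labelled libraries without passing the test. In Fermt1 every iTreg KO library lay below every iTreg WT library, as 4.95% of all genes did, and the exact permutation p was 0.1, the smallest that 3 against 3 allows. By pair, Fermt1 in KO was 0.548, 0.0450 and 0.550 times its level in WT. H19 was 1.20, 0.0201 and 0.481 times, and its log2 fold change of -1.13 (SE 0.74, edgeR adjusted p 0.79) became -0.57 without iTreg KO replicate 2, as that of Fermt1 became -0.68. The other 6 genes had log2 fold changes from -0.39 (Vldlr) to 0.72 (Upp1), with standard errors of 0.33 to 1.02.

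**Figure D3:**
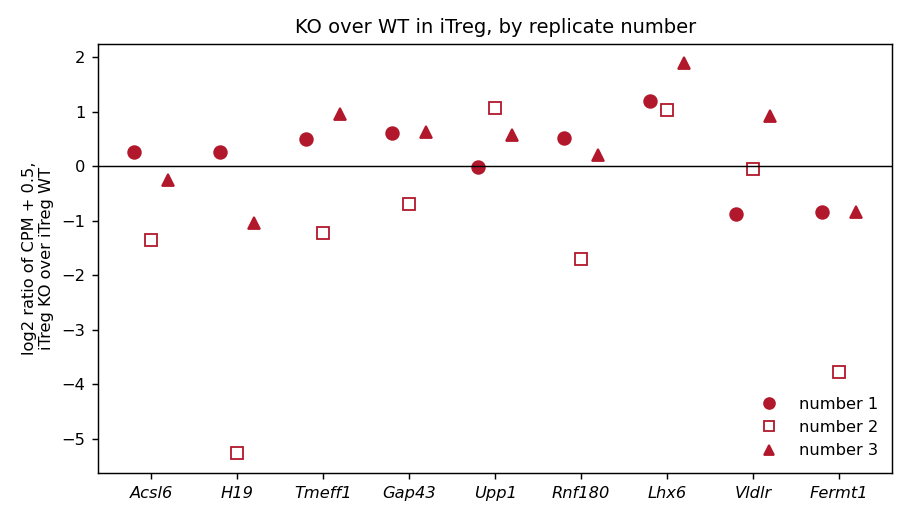
Log2 ratio of CPM + 0.5 in iTreg KO over iTreg WT for each of the 9 genes, with a point per pair of libraries of the same replicate number and the line of no difference at 0. Lhx6 lies above 0 in all 3 pairs and Fermt1 below 0 in all 3, while the pair numbered 2 lies lowest for Acsl6, H19, Tmeff1, Gap43, Rnf180, Lhx6 and Fermt1.

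In nTreg none of the 9 was called between KO and WT by edgeR, where 2.53% of genes were called (304, with 1610 at an unadjusted p under 0.05). With 0 to 7 reads in nTreg KO and none in nTreg WT, a difference was not detectable at this depth. The difference between the iTreg and nTreg changes was called for none of the 9 and for 0.291% of genes (35, with 896 at an unadjusted p under 0.05). This difference rests on the same few nTreg reads. Its SE was 1.59 for Lhx6 to 6.92 for H19, and none was obtained for Tmeff1 and Gap43. It was thus not detectable at this depth either, and no conclusion is drawn from the missing calls.

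In iTreg KO all 9 genes varied more between libraries than the median gene did, and in iTreg WT 8 of the 9 did. The SD of log2(CPM + 0.5) over the 3 iTreg KO libraries was 0.74 for Lhx6 to 2.59 for H19, against a median of 0.19 for the 8195 genes with at least 15.9 CPM on average over the iTreg libraries. In iTreg WT it was 0.083 for Acsl6 to 2.72 for Vldlr, against a median of 0.17. Acsl6 was the exception in iTreg WT, where 17.1% of those genes varied less, and Rnf180 was close to the median there (SD 0.21, with 63.5% varying less).

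By the iTreg library in which they were lowest, the 9 genes fell into 2 sets. H19, Fermt1, Rnf180 and Acsl6 were all lowest in iTreg KO replicate 2, where H19 had 1.69 CPM against 40.6 to 84.5 CPM in the other 5 iTreg libraries. Foxp3 was lowest in the same library, with 191 CPM against 306 to 393 CPM in the other 5, and so was Nrp1 (neuropilin-1) with 62.3 CPM against 255 to 292 CPM. Other Treg and T cell markers went both ways in that library. Il2ra was lowest there too (2445 CPM), Ctla4, Cd4, Cd3e and Cd3g were not, and Ikzf2 was highest there (34.5 CPM). Upp1, Vldlr, Lhx6, Tmeff1 and Gap43 were all lowest in iTreg WT replicate 3, and Upp1 and Vldlr were low in both libraries numbered 3. The sets were not clear-cut. Over the 6 iTreg libraries Tmeff1 correlated at 0.308 to 0.734 with the genes of the first set and at 0.292 to 0.939 with the others of its own. In 10 of 12 genes known to respond to hypoxia-inducible factor (HIF), a list chosen after the values were seen, both iTreg libraries numbered 3 were below the other 4. The median of these 12 genes was 109, 202 and 74.1 CPM in iTreg KO and 223, 277 and 71.4 CPM in iTreg WT. The share of all genes with that order was not counted. Both libraries numbered 3 deviated together over all genes (correlation 0.652), so the count of HIF-responsive genes is a description only. The part of these differences between libraries in the values of the 9 genes was not tested.

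**Figure D4:**
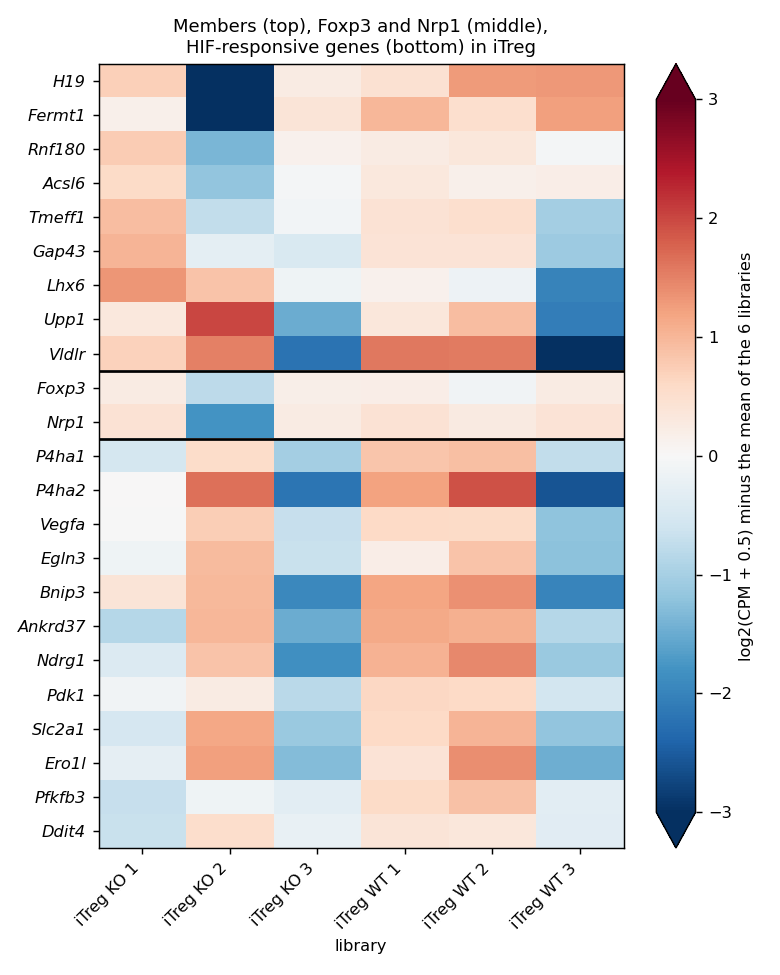
Level of the 9 genes (top), Foxp3 and Nrp1 (middle) and 12 HIF-responsive genes (bottom) in the 6 iTreg libraries, as log2(CPM + 0.5) minus the mean of the 6 libraries, from -3 in blue to 3 in red. H19 and Fermt1 are darkest blue in iTreg KO replicate 2, as Foxp3 and Nrp1 are also lowest there, while Upp1 and Vldlr and most HIF-responsive genes are blue in both libraries numbered 3.

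Genes with the most similar profile over the 12 libraries, by Pearson correlation of log2(CPM + 0.5), fell along the same lines. These correlations are set mainly by the gap between iTreg and nTreg that all 12 libraries share, so they are a description and carry no p. Tead1, a transcription factor of the Hippo pathway, was nearest to Acsl6 (r = 0.998) and second for Rnf180 (r = 0.996), behind Nhs (r = 0.996). Tead1 had 169, 54.9 and 138 CPM in iTreg KO, against 0.695, 1.39 and 0.540 CPM in nTreg KO, lowest in iTreg KO replicate 2 among iTreg libraries. The fatty acid desaturase Fads2 and the steroid dehydrogenase Akr1c18 were also near Acsl6. Abcc8, a subunit of potassium channels, was nearest to both H19 (r = 0.992) and Fermt1 (r = 0.991), and Papln was among the first 3 for both.

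The adenosine receptor gene Adora2b was nearest to both Tmeff1 (r = 0.996) and Gap43 (r = 0.998). The sphingosine kinase Sphk1 was among the first 3 for Gap43 and Lhx6, and Plekhf2 was nearest to Lhx6 (r = 0.996). Upp1 was nearest to Ccrn4l (r = 0.997), then to Nampt, which recycles nicotinamide for NAD, and to Procr. Vldlr was nearest to Slc41a2 (r = 0.991) and then to the glycolytic enzyme Pfkl, which had 277, 421 and 106 CPM in iTreg KO, against 84.9, 72.8 and 74.9 CPM in nTreg KO. Pfkl, like Vldlr, was lowest in the iTreg libraries numbered 3.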

How the data were processed

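RNA of 12 libraries, 3 in each of 4 groups given by the labels, was sequenced. Raw counts by gene symbol were deposited by the authors, in 1 file per library. Per the submitters' processing notes, cutadapt 1.13, STAR, HTSeq 0.6.1p1, DESeq2 and mm10 were used, with no role, order or strand setting given in the sources used here. For tests, the robust quasi-likelihood method of edgeR 4.0.16 in R 4.3.3 was fitted to all 12 libraries together, with 1 term for each group, TMM scaling and 8 residual degrees of freedom. A filter at a minimum count of 10 and total of 15 left 12038 genes. Adjusted p is Benjamini-Hochberg over these, with a threshold of 0.05. SE of a log2 fold change was derived from the test, as its absolute value divided by the square root of the F statistic. CPM use TMM-scaled totals, and a group without reads was set to 3 counts for bounds of a fold. Intervals are 95% exact binomial and, like floors, cover counting error only.

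The 9 genes and the 12 gene lists (221 genes) were chosen with earlier results of these data known. Named are the 9 genes, Syvn1, the 3 genes of smallest p in each list in iTreg KO against nTreg KO, the 3 genes most correlated with each of the 9, and Treg markers. Others were chosen after their values were seen. Exact permutation tests were two-sided, on log2(CPM + 0.5).

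Replicate numbers from the labels paired KO and WT libraries within a cell type: deviations from group means correlated at 0.326 to 0.652 in iTreg and 0.501 to 0.621 in nTreg for the same number (other numbers -0.544 to 0.139 and -0.442 to -0.0648). They did not pair iTreg with nTreg (-0.0613 to 0.0967 in KO). Alternatives were RLE size factors, no or a stricter filter, DESeq2 1.42.0, the replicate block, the 6 compared libraries alone, and leaving out libraries. The test was tried on simulated counts. Positions and exon lengths are from GENCODE M21 (mm10) and promoter and miRNA sequences from RefSeq (GRCm38.p6). None of the 9 genes overlaps another gene with counts in the files. Genes absent from the files do overlap some of them, the longest being antisense Gm12224 in Acsl6 (13111 bases). Whether reads of these were counted with the 9 genes could not be checked. Figures were drawn with matplotlib 3.10.9. Reads, exons and splicing were not analysed here.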

Additional observations from a re-analysis of the deposited data

How the results depend on the processing

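In iTreg KO against nTreg KO all 9 genes stayed higher and past the threshold under each alternative in which they were tested, including without either pair of iTreg libraries numbered 2 or 3 (added after the data were seen). Without any 1 library, 9 of 9 were called, with fitted log2 fold changes of 10.54 to 12.74 for Acsl6, 9.03 to 11.38 for H19, 11.84 to 12.72 for Tmeff1, 11.53 to 12.38 for Gap43, 8.84 to 11.93 for Upp1, 6.34 to 10.95 for Rnf180, 10.18 to 12.27 for Lhx6, 7.16 to 10.48 for Vldlr and 6.26 to 7.60 for Fermt1. These sizes depend on the few nTreg KO reads and are no bounds. With the 6 KO libraries alone, 8 of 8 tested were called (6662 genes in all), and Fermt1 did not pass the filter on low counts. With a replicate block over the 6 KO libraries, which the check of pairing did not bear out between iTreg and nTreg, 8 of 8 tested were called (6213 genes in all), again without Fermt1.

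The number of genes called in KO against WT was unstable. In iTreg it was 22 in the main fit, 0 to 64 without 1 library, 7 without both nTreg libraries numbered 2, 0 with the 6 libraries alone, 114 with the replicate block, 99 with DESeq2, 75 without both iTreg libraries numbered 3 and 1 without both numbered 2. Of the 9 genes 1 (Lhx6) was called with the block and 0 under every other setting; without both iTreg libraries numbered 3 its adjusted p was 0.064. In nTreg 304 genes became 167 to 432 without 1 library, 103 without both numbered 2, 1142 with the 6 alone, 1083 with the block and 496 with DESeq2. For the difference 35 genes became 1 to 58 without 1 library, 1 without both nTreg libraries numbered 2, 217 with the block and 140 with DESeq2. The block changed no other call of the 9 genes. The cause of these changes was not tested.

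Some values of the 9 genes that had passed no test changed sign. In KO against WT in iTreg, without 1 library, the log2 fold changes ran from -0.44 to 0.44 for Gap43, -0.49 to 0.39 for Tmeff1, -0.75 to 0.065 for Acsl6, -0.62 to 0.30 for Rnf180, -0.53 to 1.33 for Upp1 and -1.20 to 0.15 for Vldlr. Without both iTreg libraries numbered 3 Tmeff1 was at -0.13, and without both numbered 2 Acsl6 was at 0.031 and Rnf180 at 0.39. For the difference, without 1 library, they ran from -0.44 to 0.44 for Gap43, -0.49 to 0.39 for Tmeff1, -2.36 to 0.72 for Upp1 and -0.996 to 1.23 for Lhx6; Lhx6 was at 1.23 without both nTreg libraries numbered 2 and at 0.75 with DESeq2, Upp1 at 0.22 with DESeq2, and Tmeff1 at -0.13 without both iTreg libraries numbered 3. Leaving out Fermt1, the lowest of the 9, as the bound left 9 of the 10 genes with no read in nTreg WT at that level. Fold changes against nTreg rest on 0 to 7 reads and are limited by depth.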
